A study of Saccharomyces cerevisiae with 21 samples.

Results

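Messenger RNA was measured in degron strains of the budding yeast Saccharomyces cerevisiae, and the genes described here are those whose mRNA moved the same way with the auxin 3-indole-acetic acid (IAA) in all 3 of these strains. The members were found from 18 of the 21 libraries of the study, 9 from cultures treated with 500 µM IAA and 9 from cultures given an equal volume of the vehicle DMSO. The 3 strains were STH1-AID (STH1-3V5-IAA7), RAP1-AID (RAP1-3V5-IAA7) and STH1-AID RAP1-AID (both tagged alleles, called dual-degron below), with 3 biological replicates for each strain and treatment. All 3 carried osTIR under the GPD1 promoter at LEU2 and FLAG-tagged RPB3, in a MATa background derived from BY4741 (his3D1, leu2D0, met15D0, ura3D0), and were grown in rich glucose medium. The methods give the IAA treatment as 2 h. The WT strain carried the tagged RPB3 but no osTIR and no degron, and its 3 libraries came from untreated cells. No strain without a degron received IAA, so effects of IAA itself, of osTIR with IAA and of the loss of a protein in general cannot be told apart.

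In the auxin-inducible degron (AID), IAA bridges the plant F-box protein TIR1 and a tagged protein. TIR1 joins the yeast SCF ubiquitin ligase, which ubiquitinates the tagged protein for destruction by the proteasome. Sth1 is the ATPase of RSC, an essential remodeller that keeps promoters free of nucleosomes. Rap1 is a general regulatory factor that binds promoters, among them those of most ribosomal protein genes. The libraries were made from polyadenylated RNA, which was extracted after cells of the fission yeast Schizosaccharomyces pombe had been added as a spike-in.

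A gene was called shared where the IAA and DMSO libraries differed in each strain at a Benjamini-Hochberg adjusted p under 0.05 by edgeR's quasi-likelihood test, with the same sign in all 3 strains. The strains share no library, so each gene was read 3 times in separate cultures. Of 6256 genes tested, 179 were shared higher (2.86%) and 165 were shared lower (2.64%). In STH1-AID cells 36.7% of all genes tested were higher with IAA and 40.9% were lower. In RAP1-AID cells 5.71% were higher and 8.6% were lower, and in dual-degron cells 33.5% were higher and 39.4% were lower. The shared genes therefore made up 50.1% of the genes higher and 30.7% of those lower in RAP1-AID cells, but 7.8% and 6.44% of those in STH1-AID cells and 8.55% and 6.69% of those in dual-degron cells. These values chose the members and are given as a description. The shares depend on the fit, which took 1 spread per gene over all 3 strains. Fitted alone, RAP1-AID cells had 22.7% of 6078 genes higher and 23.2% lower. With each strain fitted alone, 465 genes were shared higher and 432 lower. The members nearest to the threshold were SKA1 (largest adjusted p of the 3 strains 0.0495) and RPL31B (0.0498), and the nearest genes outside it were RPT4 (0.0514) and ZPR1 (0.0504).

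Values are given as counts scaled to the library total of S. cerevisiae genes (CPM) with TMM scaling, which sets each library against its own total mRNA, and log2 fold changes are IAA over DMSO with the standard error (SE) of the fit. Where 3 log2 fold changes are given together, they are those of STH1-AID, RAP1-AID and dual-degron cells in this order. Scaling by the S. pombe spike-in instead moved the median change over all genes, as log2, by −0.8, −0.26 and −0.63 in STH1-AID, RAP1-AID and dual-degron cells. Every "higher" below is therefore higher relative to the other mRNAs of the library. On the spike-in scale 7 of the 179 genes met the rule, and 89 of them were above 0 in all 3 strains. All 165 genes of the other direction stayed below 0 on that scale, which follows from the downward shift in every strain. Of these, 91 met the rule there. The counts also moved with single libraries. Dropping DMSO replicate 3 left 118 genes shared higher when it was that of RAP1-AID cells and 373 when it was that of dual-degron cells. Without DMSO replicate 1 or 2 of RAP1-AID cells 127 or 121 were left. Dropping the DMSO or the IAA replicate 2 of STH1-AID cells left 269 or 275, and dropping any other library of that strain left 263 to 267. Dropping DMSO replicate 1 of STH1-AID cells left 72 genes shared lower. Leaving out any library of STH1-AID cells, any of IAA-treated RAP1-AID cells or replicate 3 of DMSO-treated dual-degron cells brought the genes shared lower to between 72 and 102, and without any 1 library of STH1-AID cells the median over all genes in that strain moved up by 0.13 to 0.14 on the log2 scale.

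**Figure D1:**
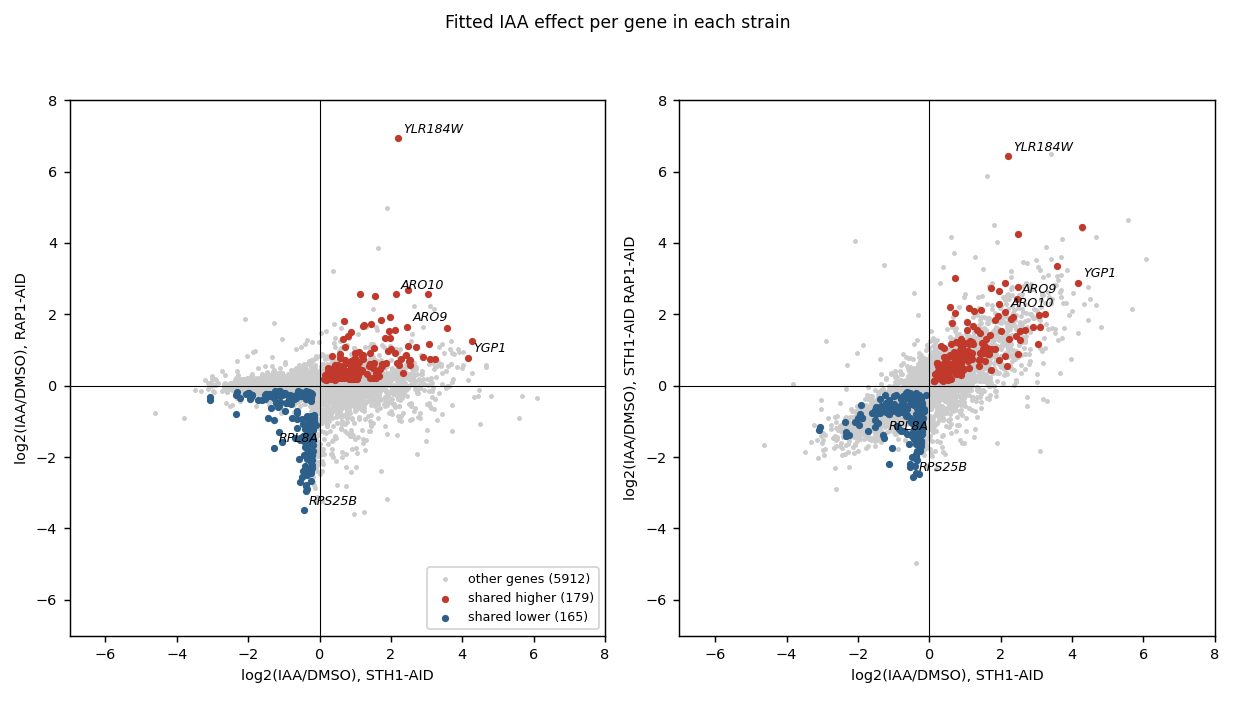
Log2 fold change (IAA over DMSO, TMM scaling) of every gene tested in RAP1-AID (left) and dual-degron cells (right, labelled STH1-AID RAP1-AID) against that in STH1-AID cells. Genes shared higher (179, red) and shared lower (165, blue) lie in the upper right and lower left quadrants by their choice, and on the S. pombe scale 7 of the red genes would still meet the rule.

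The library totals were 20901972 to 28723673 S. cerevisiae counts in IAA-treated and 21337403 to 29090954 in DMSO-treated cultures, beside 1823908 to 3486097 S. pombe counts with IAA and 1144357 to 3014356 with DMSO. The 100 genes with the most counts took 22.5% to 38.4% of the total with IAA and 26.1% to 29.7% with DMSO. In STH1-AID cells the share was 36.1% to 38.4% with IAA against 28.4% to 29.7% with DMSO. In RAP1-AID cells it was lower with IAA, at 22.5% to 22.8% against 26.1% to 26.3%. In dual-degron cells it was 28.9% to 30.5% against 26.4% to 26.8%. The part of these unlike shifts in the results was not tested. Because these are bulk cultures, fewer responding cells and less RNA per cell cannot be told apart. The a-specific genes of MATa cells summed to between 1100 and 2870 CPM in a library, and the 4 alpha-specific genes to between 56.9 and 285 CPM. Most of the latter sum was SAG1, with 1131 to 6558 counts in a library. STE3 held 1 to 468 counts, MF(ALPHA)1 0 to 56 and MF(ALPHA)2 0 to 28. URA3, deleted in all strains, was not above the filter on low counts, and neither was LEU2. The paper lists a LEU2 marker beside osTIR in the degron strains, yet LEU2 held 0 to 3 counts in their libraries. The reason was not tested. MET17, which by the labels is deleted in every strain (met15D0), was near 0 in STH1-AID cells only, at 0.371, 0.172 and 0.721 CPM with IAA against 0.0976, 0.0492 and 0.0427 CPM with DMSO. RAP1-AID cells held 79.3, 78.3 and 84.1 CPM of MET17 with IAA against 150, 147 and 149 CPM with DMSO, and untreated WT cells held 330 to 365 CPM, so at MET17 the strains other than STH1-AID went against the labels.

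The degron acts on the protein, so the mRNAs of its targets do not measure the depletion. STH1 mRNA was at 834, 853 and 805 CPM in IAA-treated against 435, 413 and 469 CPM in DMSO-treated STH1-AID cells. In RAP1-AID cells, where Sth1 was not tagged, it was at 291, 275 and 280 CPM with IAA against 313, 311 and 314 CPM with DMSO, a difference that missed the threshold (adjusted p = 0.171 by edgeR). In dual-degron cells the log2 fold change was 0.76, so STH1 was not shared.

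RAP1 mRNA, in contrast, was among the genes shared higher, although it did not meet the rule when each strain was fitted alone. It was at 150, 137 and 143 CPM in IAA-treated against 116, 115 and 107 CPM in DMSO-treated STH1-AID cells, where Rap1 carried no degron. RAP1-AID cells held 202, 191 and 194 CPM with IAA against 152, 154 and 147 CPM with DMSO. Dual-degron cells held 189, 160 and 193 CPM with IAA against 148, 148 and 159 CPM with DMSO, and the groups did not overlap in any of the 3 strains. The log2 fold changes were 0.35 ± 0.07, 0.37 ± 0.06 and 0.25 ± 0.06 (SE) in STH1-AID, RAP1-AID and dual-degron cells. No difference between strains passed the threshold in edgeR's test of the interaction (adjusted p = 0.422), and on the S. pombe scale the effect pooled over strains was −0.24. RAP1 was the only shared member among 6 general regulatory factors tested, and none of 17 subunits of RSC was shared.

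The members of largest change in all strains included the pathway that breaks down aromatic amino acids. ARO9 encodes an aromatic aminotransferase and ARO10 the decarboxylase of the next step, which together turn tryptophan towards the alcohol tryptophol. Both are known targets of the zinc cluster activator Aro80, which binds CCG triplets spaced by 7 bases. The 300 bases before the start codon of each are shown because both carry such pairs, read on either strand (CCG, any 7 bases, CCG, or its reverse complement) with the triplets in capitals. The sequences are from the R64 genome, 5′ to 3′ on the coding strand, at chrVIII:375409-375708 for ARO9 and chrIV:1233918-1234217 for ARO10, both on the + strand.
ARO9: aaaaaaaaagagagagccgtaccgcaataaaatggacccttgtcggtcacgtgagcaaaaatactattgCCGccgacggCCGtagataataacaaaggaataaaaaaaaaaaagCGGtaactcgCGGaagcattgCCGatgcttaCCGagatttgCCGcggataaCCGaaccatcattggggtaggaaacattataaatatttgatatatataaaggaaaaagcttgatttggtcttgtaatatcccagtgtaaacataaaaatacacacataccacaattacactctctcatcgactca
ARO10: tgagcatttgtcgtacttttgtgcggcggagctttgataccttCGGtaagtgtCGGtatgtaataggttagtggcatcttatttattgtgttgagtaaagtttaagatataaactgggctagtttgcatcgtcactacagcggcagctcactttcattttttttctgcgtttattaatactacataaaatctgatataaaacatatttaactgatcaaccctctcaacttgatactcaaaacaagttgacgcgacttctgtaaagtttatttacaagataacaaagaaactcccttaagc
The ARO9 window held 5 overlapping or separate pairs, the first starting 231 bases before the start codon, and the ARO10 window held 1 pair, 257 bases before it. Such a pair occurred in 2.74% of the windows of all 6244 genes read this way, in 4.47% of those shared higher and in 3.64% of those shared lower.

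ARO10 mRNA was at 60.4, 66.7 and 55.2 CPM in IAA-treated against 14.1, 15.4 and 12.3 CPM in DMSO-treated STH1-AID cells. It was at 155, 159 and 153 CPM in IAA-treated against 25.4, 26.9 and 26.6 CPM in DMSO-treated RAP1-AID cells. Dual-degron cells had 108, 136 and 168 CPM with IAA against 20.4, 28.1 and 50.6 CPM with DMSO. Every IAA library was above every DMSO library of its strain, and replicate 3 of the dual-degron cells was the highest of its group under either treatment. Untreated WT cells had 4.33, 5 and 3.35 CPM, below every library of the degron strains. The log2 fold changes of ARO10 were 2.13 ± 0.24, 2.57 ± 0.23 and 2.06 ± 0.23 (SE) in STH1-AID, RAP1-AID and dual-degron cells, and no difference between the strains passed the threshold (adjusted p = 0.281).

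ARO9 mRNA was at 319, 356 and 275 CPM with IAA against 62, 67.3 and 44.6 CPM with DMSO in STH1-AID cells. RAP1-AID cells had 218, 221 and 207 CPM with IAA against 69.1, 65.5 and 71.4 CPM with DMSO. Dual-degron cells had 443, 378 and 608 CPM with IAA against 69, 65.9 and 128 CPM with DMSO. The groups were apart in each strain, replicate 3 was again the highest of the dual-degron cells under either treatment, and WT cells (62.3, 60.9 and 47.8 CPM) lay with the DMSO libraries. The log2 fold changes of ARO9 were 2.45 ± 0.23, 1.65 ± 0.22 and 2.44 ± 0.23 (SE), and these differed between strains (adjusted p = 0.0386).

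The mRNA of ARO80 itself had a log2 fold change of −0.11 in each strain and was not called in any (adjusted p = 0.134, 0.336 and 0.162 by edgeR in STH1-AID, RAP1-AID and dual-degron cells). ARO8, the aminotransferase of the synthetic direction, changed by 0.12, −0.12 and 0.17, without a call in the single degron strains. Of 19 genes listed for breakdown of tryptophan and other aromatic amino acids, 2 were shared higher (ARO9 and ARO10, 10.5% against 2.86% of all genes), 2 were shared lower (ADH5 and ALD5, 10.5% against 2.64%) and 15 were not shared. ADH5, an alcohol dehydrogenase isozyme, was at 2.47, 2.29 and 3.02 CPM with IAA against 6.98, 5.07 and 9.18 CPM with DMSO in STH1-AID cells, and it fell by 1.44, 0.91 and 1.05 on the log2 scale in STH1-AID, RAP1-AID and dual-degron cells. Untreated WT cells held 6.76, 2.27 and 2.62 CPM of ADH5. ALD5, a mitochondrial aldehyde dehydrogenase, fell by 1.94, 0.38 and 0.78.

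Some genes of tryptophan synthesis moved in the direction opposite to ARO9 and ARO10. Of 14 genes for synthesis and uptake, 3 were shared lower (21.4%, against 2.64% of all genes) and 0 were shared higher (2.86% of all), and the medians of the list were −0.29, −0.16 and −0.16 against −0.04, 0.01 and −0.04 over all genes in STH1-AID, RAP1-AID and dual-degron cells. On the S. pombe scale 0 of the 14 met the rule in either direction. ARO4, an enzyme of the first step of the shikimate pathway, was at 113, 101 and 116 CPM with IAA against 413, 366 and 439 CPM with DMSO in STH1-AID cells. Levels in RAP1-AID cells were 329, 333 and 334 CPM with IAA against 391, 402 and 410 CPM with DMSO, a narrow gap without overlap. The log2 fold changes of ARO4 were −1.88, −0.27 and −0.89, those of ARO2 (chorismate synthase, not shared when each strain was fitted alone) were −0.66, −0.35 and −0.24, and those of TRP5 (tryptophan synthase) were −1.03, −0.23 and −0.6. The high affinity tryptophan permease gene TAT2 was not shared (0.09, 0.09 and 0.37).

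Other members among those that moved most in every strain were TPO2 and YRO2. TPO2 encodes a polyamine exporter of the plasma membrane and YRO2 a membrane protein of unknown molecular function, and both are known targets of Haa1, the activator of genes for weak acid resistance. TPO2 was at 13.8, 22.5 and 15.2 CPM with IAA against 6.2, 10.7 and 5 CPM with DMSO in STH1-AID cells, at 92.6, 82 and 103 CPM against 27.7, 26.4 and 30.9 CPM in RAP1-AID cells, and at 33.3, 37.4 and 31.1 CPM against 6.32, 10.3 and 7.08 CPM in dual-degron cells. Its log2 fold changes were 1.24 ± 0.24, 1.7 ± 0.21 and 2.1 ± 0.23 (SE), with no difference between strains past the threshold (adjusted p = 0.079). The DMSO libraries of RAP1-AID cells already held more TPO2 mRNA than the IAA libraries of STH1-AID cells.

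YRO2 was at 37.8, 33.3 and 20.9 CPM with IAA against 9.62, 8.96 and 5.08 CPM with DMSO in STH1-AID cells. RAP1-AID cells had 12.9, 10.7 and 12.3 CPM with IAA against 2.91, 3.18 and 3.32 CPM with DMSO. Dual-degron cells had 14.5, 27 and 22.7 CPM with IAA against 2.58, 3.99 and 3.63 CPM with DMSO. The groups did not overlap in any strain, and the log2 fold changes of YRO2 (1.96 ± 0.26, 1.93 ± 0.28 and 2.65 ± 0.28, SE) did not differ between strains past the threshold (adjusted p = 0.16).

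Other genes of these responses did not follow in all strains. TPO2 was the only shared member of 28 genes for multidrug and weak acid transport. HAA1 itself changed by 0.1, −0.03 and 0.12 with no call. TPO3, a paralogue of TPO2, changed by 0.05 in STH1-AID cells (adjusted p = 0.557), 0.36 in RAP1-AID cells and 0.53 in dual-degron cells. PDR12, the exporter of weak organic acids, changed by 0.77, 0.31 and 1.41, of which the value in RAP1-AID cells missed the threshold (adjusted p = 0.191), and the same was true of the drug exporter PDR5 (0.89, −0.04 and 0.86).

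**Figure D2:**
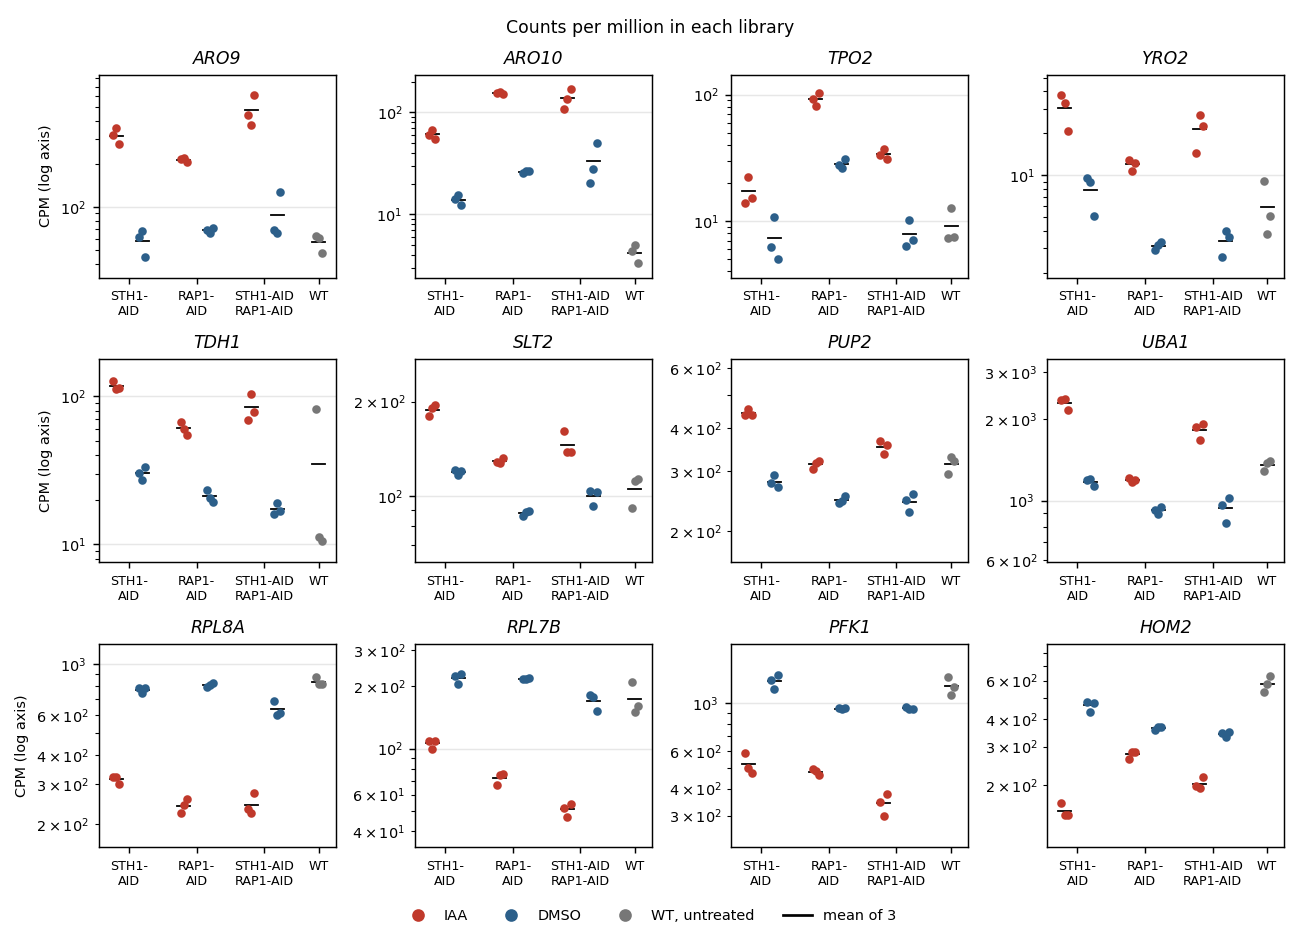
CPM (TMM scaling, log axis) of 12 shared genes in each library, with IAA (red) left of DMSO (blue) for each strain and untreated WT (grey) at the right, and bars for the mean of 3. IAA and DMSO libraries are apart in every strain for the genes shown, for example 218, 221 and 207 CPM of ARO9 in IAA-treated against 69.1, 65.5 and 71.4 CPM in DMSO-treated RAP1-AID cells. On the S. pombe scale the pooled effect of PUP2 turns to −0.05.

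STF1, which helps to hold the inhibitor on the mitochondrial ATP synthase, was at 70.5, 82.9 and 69.9 CPM with IAA against 18.6, 18.3 and 14.9 CPM with DMSO in STH1-AID cells. RAP1-AID cells had 21.4, 20.1 and 19.8 CPM with IAA against 7.57, 5.72 and 7.29 CPM with DMSO, and dual-degron cells had 47.2, 45.4 and 54.5 CPM with IAA against 5.26, 5.91 and 9.07 CPM with DMSO. The groups were apart in each strain, by log2 fold changes of 2.11, 1.57 and 2.87.

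TDH1, the glyceraldehyde-3-phosphate dehydrogenase isozyme of stressed and resting cells, was at 67.4, 59.7 and 54.8 CPM in IAA-treated against 23.4, 20.7 and 19.2 CPM in DMSO-treated RAP1-AID cells. Its log2 fold changes were 1.95, 1.52 and 2.28 in STH1-AID, RAP1-AID and dual-degron cells. In untreated WT cells TDH1 was at 82.4 CPM in replicate 1 against 11.3 and 10.6 CPM in the others, so the level varied without IAA as much as it did between treatments.

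SGA1, a glucoamylase of sporulating cells, had log2 fold changes of 3.05, 2.57 and 1.17 in STH1-AID, RAP1-AID and dual-degron cells, and PHM8, a phosphatase of the phosphate starvation response, had 3.08, 1.17 and 1.97. ECM8 had 4.27, 1.25 and 4.46, and YOR161C-C, a short reading frame, had 1.73, 1.85 and 2.73. In RAP1-AID cells ECM8 was at 0.859, 0.966 and 1.21 CPM with IAA against 0.397, 0.465 and 0.411 CPM with DMSO, so its change there rested on few counts. On the S. pombe scale the 7 genes that met the rule in all strains were ARO9, ARO10, STF1, TDH1, YRO2, YOR161C-C and the low-count reading frame YBL044W, the last of which was named after its values were seen. Their smallest log2 fold changes over the strains on that scale were 1.38 for ARO9, 1.36 for ARO10, 1.3 for STF1, 1.11 for TDH1, 1.24 for YRO2, 0.98 for YOR161C-C and 1.72 for YBL044W.

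Of 49 genes of the general stress response that is driven by Msn2 and Msn4, 3 were shared higher (6.12%, against 2.86% of all genes) and 0 were shared lower (2.64% of all). The medians of the list were 2.02, 0.22 and 0.89 in STH1-AID, RAP1-AID and dual-degron cells, and 41, 5 and 32 of its 49 members were called higher there, where 36.7%, 5.71% and 33.5% of all genes were. HSP12, a marker of this response, changed by 5.68 in STH1-AID and 2.15 in dual-degron cells, but by −0.29 in RAP1-AID cells (adjusted p = 0.529 by edgeR). The 3 shared members were YGP1 (4.16, 0.79 and 2.89), a secreted glycoprotein, GPH1 (2.91, 0.81 and 1.65), glycogen phosphorylase, and HSP26 (2.54, 0.71 and 1.27), a small heat shock protein, each with the smallest change in RAP1-AID cells. WT replicate 1 also stood above the other untreated libraries at these genes, with 114 CPM of YGP1 against 27.1 and 20.7 CPM. The stress response element AGGGG, searched on both strands in the 300 bases before the start codon, was in 35.8% of the windows of genes shared higher, 16.4% of those shared lower and 22.2% of all. None of the windows of YGP1, GPH1 and HSP26 held it.

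The proteasome, which degrades ubiquitinated proteins, was the list with the largest share of shared members. Relative to the other mRNAs, 27 of 42 proteasome genes (64.3%) were shared higher and 0 were shared lower, against 2.86% and 2.64% of all genes, but on the S. pombe scale 0 were shared and the medians were −0.06, 0.03 and −0.27 in STH1-AID, RAP1-AID and dual-degron cells. The changes were small: with TMM scaling the medians were 0.73, 0.29 and 0.36, and the 27 shared members ranged from 0.19 to 0.51 in RAP1-AID cells. In RAP1-AID cells, where 5.71% of all genes were higher, 36 of the 42 were. The count of 27 stayed between 21 and 29 when any library was left out.

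Proteasome genes are known to be controlled by the activator Rpn4 through the element GGTGGCAAA. The windows of PUP2 and PRE8 are shown, with this element in capitals, as examples of members that hold it. Those of PUP1 and UFD1, named below, held no match. PUP2 encodes a core particle subunit of the alpha ring and PRE8 another subunit of that ring. The 300 bases before the start codon are given 5′ to 3′ on the coding strand from R64, at chrVII:999141-999440 for PUP2 and chrXIII:86740-87039 for PRE8, both on the − strand.
PUP2: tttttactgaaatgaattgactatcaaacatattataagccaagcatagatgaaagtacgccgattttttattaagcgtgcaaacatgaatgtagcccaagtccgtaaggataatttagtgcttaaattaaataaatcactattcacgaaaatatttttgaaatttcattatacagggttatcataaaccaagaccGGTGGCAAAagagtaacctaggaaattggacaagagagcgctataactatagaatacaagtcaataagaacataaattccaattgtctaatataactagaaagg
PRE8: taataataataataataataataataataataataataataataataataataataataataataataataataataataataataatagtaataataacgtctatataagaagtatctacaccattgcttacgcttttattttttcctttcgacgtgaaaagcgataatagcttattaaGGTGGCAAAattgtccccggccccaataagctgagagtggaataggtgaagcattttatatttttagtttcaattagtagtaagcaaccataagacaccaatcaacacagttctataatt
The element, searched on both strands, began 104 bases before the start codon in PUP2 and 120 bases before it in PRE8. It occurred in 1.22% of all windows, in 69.0% of the windows of the proteasome list, in 74.1% of the 27 shared members and in 60.0% of the 15 members that were not shared. Outside the proteasome list, 9 of 152 genes shared higher held it (5.92%), among them UBA1 and YAP1, and 0 of 165 genes shared lower did.

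PUP2 mRNA was at 437, 455 and 437 CPM with IAA against 276, 292 and 269 CPM with DMSO in STH1-AID cells. RAP1-AID cells had 304, 316 and 321 CPM with IAA against 242, 245 and 253 CPM with DMSO, and dual-degron cells had 366, 337 and 358 CPM with IAA against 247, 227 and 256 CPM with DMSO. The groups were apart in each strain, although the WT libraries (294, 329 and 321 CPM) lay as high as the IAA libraries of RAP1-AID cells. The log2 fold changes of PUP2 were 0.67 ± 0.05, 0.35 ± 0.05 and 0.54 ± 0.05 (SE) and differed between strains (adjusted p = 0.00358).

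PRE8 averaged 470 ± 11.5 CPM in IAA-treated and 222 ± 7.21 CPM in DMSO-treated STH1-AID cells (SD, n = 3 each). In RAP1-AID cells it averaged 245 ± 7.94 CPM with IAA and 193 ± 8.5 CPM with DMSO, and in dual-degron cells 309 ± 5.13 CPM with IAA and 191 ± 8.39 CPM with DMSO. PUP1, a catalytic subunit, changed by 1.05, 0.34 and 0.86, and UFD1, which works with Cdc48 to deliver ubiquitinated proteins, by 1.51, 0.51 and 1.03. CDC48 (0.79, 0.29 and 0.32) and NPL4 (0.89, 0.3 and 0.31), its other partners, were shared as well. RPN4 mRNA was not shared (1.85, −0.13 and 0.82), since RAP1-AID cells gave an adjusted p of 0.647. Members of the list that moved in opposite directions between strains included PRE1 (−0.73, 0.29 and −0.83) and PRE2 (1, −0.72 and −0.25).

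UBA1, the ubiquitin-activating enzyme at the head of the ubiquitin pathway, was at 2370, 2390 and 2160 CPM with IAA against 1190, 1200 and 1130 CPM with DMSO in STH1-AID cells. RAP1-AID cells had 1210, 1170 and 1190 CPM with IAA against 924, 894 and 947 CPM with DMSO, and dual-degron cells had 1870, 1680 and 1920 CPM with IAA against 966, 826 and 1020 CPM with DMSO. No group overlapped its pair, and the log2 fold changes were 0.97, 0.37 and 0.96. UBA1 was the only shared member of 19 genes for the SCF ligase and its activation. The SCF subunit genes SKP1 (−0.97, −0.06 and −0.56) and CDC53 (−0.04, 0.1 and −0.2), on which osTIR depends, were not shared.

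**Figure D3:**
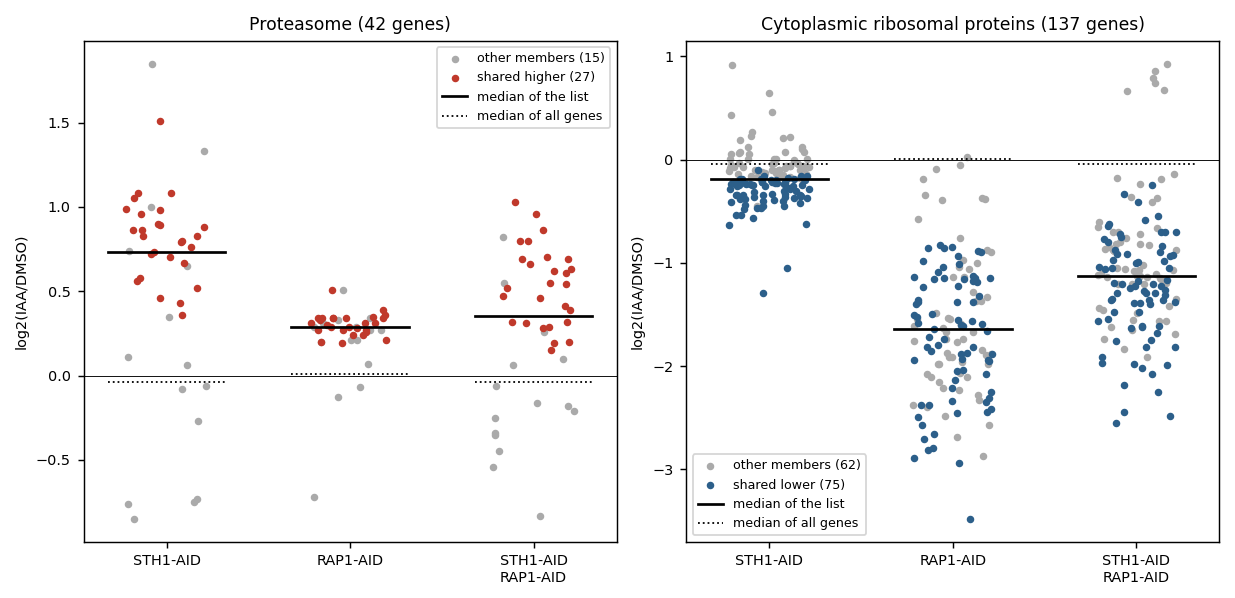
Log2 fold change (IAA over DMSO, TMM scaling) in each strain of the 42 proteasome genes (left) and the 137 cytoplasmic ribosomal protein genes (right), with shared members coloured, the list median as a solid bar and the median of all genes as a dotted bar. In RAP1-AID cells the proteasome genes cluster near their median of 0.29 and the ribosomal protein genes spread about −1.64, and on the S. pombe scale the medians of the proteasome list are −0.06, 0.03 and −0.27.

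Genes for the cell wall formed a further group among those shared higher. Of 33 such genes, 6 were shared higher (18.2%, against 2.86% of all genes) and 1, MLP1, was shared lower (3.03%, against 2.64%), with 0 shared higher on the S. pombe scale. SLT2, the MAP kinase of the cell integrity pathway, averaged 189 ± 7.77 CPM with IAA and 119 ± 2.08 CPM with DMSO in STH1-AID cells, 129 ± 2.65 and 88.2 ± 1.86 CPM with IAA and DMSO in RAP1-AID cells, and 146 ± 13.3 and 100 ± 6.08 CPM in dual-degron cells (SD, n = 3 each). Its log2 fold changes of 0.66 ± 0.06, 0.55 ± 0.06 and 0.54 ± 0.06 (SE) were close to each other (adjusted p = 0.391 for a difference). PRM5 (1.19, 0.4 and 0.75), a gene induced through this pathway, and the wall proteins CWP1 (2.5, 0.7 and 2.77), SED1 (1.69, 0.46 and 1.42), HSP150 (0.85, 0.22 and 0.65) and the transglycosylase CRH1 (1.01, 0.34 and 0.89) were the other shared members. MLP1 (−0.79, −0.3 and −0.38) is in the annotation the symbol of a nuclear pore protein, so it is no cell wall gene, and KDX1, the paralogue of SLT2 that is also called MLP1, was not shared (−0.11, 0.3 and −0.18).

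Other genes shared higher were spread over many functions, and 125 of the 179 were in no list. YAP1, the activator of the oxidative stress response, changed by 1.07, 0.33 and 0.91 in STH1-AID, RAP1-AID and dual-degron cells and was the only shared one of 30 genes for that response. RFA1 (0.89, 0.34 and 0.83) and RFA2 (0.42, 0.3 and 0.65), subunits of the complex that binds single-stranded DNA, were in no list and were shared as well. FET3, the ferroxidase of iron uptake, changed by 0.61, 0.5 and 1.16 and the phosphatase gene PHO3 by 1.07, 0.63 and 1.78. HXT5, a glucose transporter of slow growing cells, changed by 1.55, 2.51 and 0.69, with the largest value in RAP1-AID cells. LYS20, a homocitrate synthase, was the 1 gene of amino acid synthesis shared higher, at 1.07, 0.45 and 1.57. AGA2 (0.34, 0.39 and 1.11), an a-agglutinin subunit, SUL2 (0.46, 0.22 and 0.19), a sulphate permease not shared when each strain was fitted alone, and the mitochondrial ribosomal protein genes IMG2 (0.25, 0.25 and 0.56), RSM7 (0.84, 0.21 and 0.84) and RSM18 (0.42, 0.17 and 0.37) were shared with small changes, and of these SUL2, IMG2 and RSM18 turned to pooled effects of −0.28, −0.2 and −0.25 on the S. pombe scale.

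Cytoplasmic ribosomal protein genes made up 45.5% of the genes shared lower. Of 137 such genes tested, 75 were shared lower (54.7%) and 0 were shared higher, against 2.64% and 2.86% of all genes. Rap1 binds most of these promoters, and in RAP1-AID cells 133 of the 137 were lower, against 8.6% of all genes, with a median of −1.64. In STH1-AID cells, where Rap1 was not tagged, the median was −0.19, 76 were lower and 8 were higher, in a strain where 40.9% of all genes were lower and 36.7% were higher. Dual-degron cells had a median of −1.13 with 130 lower and 6 higher, against 39.4% and 33.5% of all genes. The medians over all genes were −0.04, 0.01 and −0.04. The count of shared members was 27 without IAA replicate 3 of STH1-AID cells, between 27 and 48 without any 1 of the libraries named above for the genes shared lower, and 124 on the S. pombe scale.

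The ribosomal protein genes that fell most in all 3 strains were RPL8A and RPL7B, both of the large subunit. RPL8A was at 320, 322 and 301 CPM with IAA against 782, 746 and 782 CPM with DMSO in STH1-AID cells. RAP1-AID cells had 225, 242 and 257 CPM with IAA against 792, 807 and 827 CPM with DMSO, and dual-degron cells had 233, 223 and 275 CPM with IAA against 689, 600 and 614 CPM with DMSO. The gap was wide in each strain, and the log2 fold changes were −1.29 ± 0.08, −1.74 ± 0.08 and −1.38 ± 0.08 (SE). The changes of RPL7B were −1.05, −1.59 and −1.75, and those of RPL9B −0.63, −1.18 and −1.35. For RPS25B, in contrast, the change was −0.45 in STH1-AID cells against −3.48 in RAP1-AID and −2.55 in dual-degron cells. Most ribosomal protein genes have a near-identical paralogue and were counted from uniquely mapped reads alone, so the split between copies is uncertain.

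Some members lie next to ribosomal protein genes. YPL199C and RPL7B start back to back, 396 bases apart, and YPL199C fell by 0.78, 0.91 and 1.28 in STH1-AID, RAP1-AID and dual-degron cells. Among genes tested 55 start back to back with a ribosomal protein gene, of which 6 were shared higher and 10 were shared lower, while 2.86% and 2.64% of all genes were. TEM1, a GTPase of mitotic exit that neighbours RPS1B, changed by 0.98, 0.92 and 0.85, and YOR292C, which neighbours RPS10A, by 1.12, 2.57 and 2.17.

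YLR184W had the largest change of all in RAP1-AID cells and lies 209 bases before RPL37A on the same strand (chrXII:522106-522453). It held 622 counts over the 3 IAA libraries against 4 over the DMSO libraries of RAP1-AID cells, a ratio per library size of 135 (exact 95% interval for counting error 52.5 to 498). Dual-degron cells had 791 counts with IAA against 10 with DMSO (ratio 89.9, 48.6 to 188), while STH1-AID cells had 13 against 3 (ratio 4.98, 1.37 to 27.3), and YLR184W did not meet the rule when each strain was fitted alone. RPL37A itself was lower in RAP1-AID cells (−2.4) and dual-degron cells (−1.21) and was not called in STH1-AID cells (−0.08, adjusted p = 0.368). YBR190W, which overlaps RPL21A on the same strand and shares reads with it, changed by 1.22, 1.68 and 1.17, against −0.19, −2.69 and −1.74 for RPL21A.

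Outside the ribosomal proteins, 90 genes were shared lower, with medians of −1, −0.3 and −0.67 in STH1-AID, RAP1-AID and dual-degron cells. PFK1, the alpha subunit of phosphofructokinase, was at 587, 498 and 473 CPM with IAA against 1280, 1160 and 1350 CPM with DMSO in STH1-AID cells. RAP1-AID cells had 492, 486 and 464 CPM with IAA against 947, 939 and 945 CPM with DMSO, and dual-degron cells had 347, 300 and 379 CPM with IAA against 962, 935 and 943 CPM with DMSO. The groups lay far apart in every strain, and the log2 fold changes were −1.28 ± 0.09, −0.97 ± 0.09 and −1.47 ± 0.09 (SE).

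SSL1, a subunit of TFIIH, fell by 0.7, 1.47 and 1.28 in STH1-AID, RAP1-AID and dual-degron cells. LCB3, a phosphatase of sphingoid base phosphates that overlaps YJL135W on the same strand, fell by 2.33, 0.8 and 1.42. CEM1, a mitochondrial fatty acid synthase component, fell by 0.64, 0.75 and 0.86 and DRN1 by 0.63, 0.72 and 0.83, and neither differed between strains past the threshold (adjusted p = 0.485 and 0.416). YOR338W, of unknown function, changed by −1.13, −1.3 and −2.19, with 4.06, 5.21 and 3.65 CPM in IAA-treated against a wide 19.5, 31.5 and 7.79 CPM in DMSO-treated dual-degron cells. Untreated WT cells held 10.1, 5.09 and 5.24 CPM of YOR338W. SUT2 (−1.17, −0.6 and −0.67), a transcription factor, COT1 (−0.52, −0.28 and −0.51), a vacuolar cobalt and zinc transporter, RGT2 (−0.29, −0.35 and −0.26), a glucose sensor whose call was lost with DESeq2 and with each strain fitted alone, MMP1 (−0.8, −0.52 and −0.54), a methionine derivative permease, and HCH1 (−0.82, −0.27 and −0.6), an Hsp90 co-chaperone, were other named members.

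Enzymes of amino acid synthesis were a second group among the genes shared lower, with 10 of 46 lower (21.7%, against 2.64% of all genes) and 1 higher (2.17%, against 2.86%). The 10 include ARO4, ARO2 and TRP5, which were also counted above in the list of tryptophan synthesis, so the 2 lists are not separate. The medians of the list were −0.22, −0.24 and −0.06, against −0.04, 0.01 and −0.04 over all genes, and on the S. pombe scale 1 member met the rule. The count of 10 was between 4 and 6 without replicate 1 or 3 of DMSO-treated STH1-AID cells, replicate 1 of IAA-treated STH1-AID cells, replicate 3 of DMSO-treated RAP1-AID cells, any replicate of IAA-treated RAP1-AID cells or replicate 3 of DMSO-treated dual-degron cells. Many of these genes are known targets of the activator Gcn4, which binds TGACTCA. HOM2, which acts in the common pathway to threonine and methionine, is shown as an example at chrIV:770057-770356 on the + strand of R64, with the match in capitals.
HOM2: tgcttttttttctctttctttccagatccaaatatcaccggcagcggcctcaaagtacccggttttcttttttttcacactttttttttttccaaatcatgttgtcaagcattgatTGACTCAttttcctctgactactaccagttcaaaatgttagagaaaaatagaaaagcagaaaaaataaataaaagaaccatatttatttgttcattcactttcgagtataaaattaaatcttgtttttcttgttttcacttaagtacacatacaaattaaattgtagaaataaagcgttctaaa
The match began 184 bases before the start codon. TGACTCA, on either strand, was in 2.67% of all windows, in 45.7% of those of the list and in 5 of its 10 members shared lower, among them HOM2, HOM3 and HIS7.

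HOM2 was at 165, 146 and 146 CPM with IAA against 480, 432 and 475 CPM with DMSO in STH1-AID cells. RAP1-AID cells had 264, 282 and 283 CPM with IAA against 356, 368 and 370 CPM with DMSO, and dual-degron cells had 197, 193 and 217 CPM with IAA against 347, 331 and 351 CPM with DMSO. The groups were apart in each strain, with the widest gap in STH1-AID cells, and the log2 fold changes were −1.6, −0.4 and −0.76. Those of HOM3, aspartate kinase, were −1.28, −0.33 and −0.65, and those of HIS7, an enzyme of histidine synthesis, −1.53, −0.36 and −1.15. HIS4, in the same pathway and with the largest fall of the list in RAP1-AID cells, was not shared (0.1, −2.2 and −1.3), and GCN4 mRNA was not shared either (0.82, −0.67 and 0.15).

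**Figure D4:**
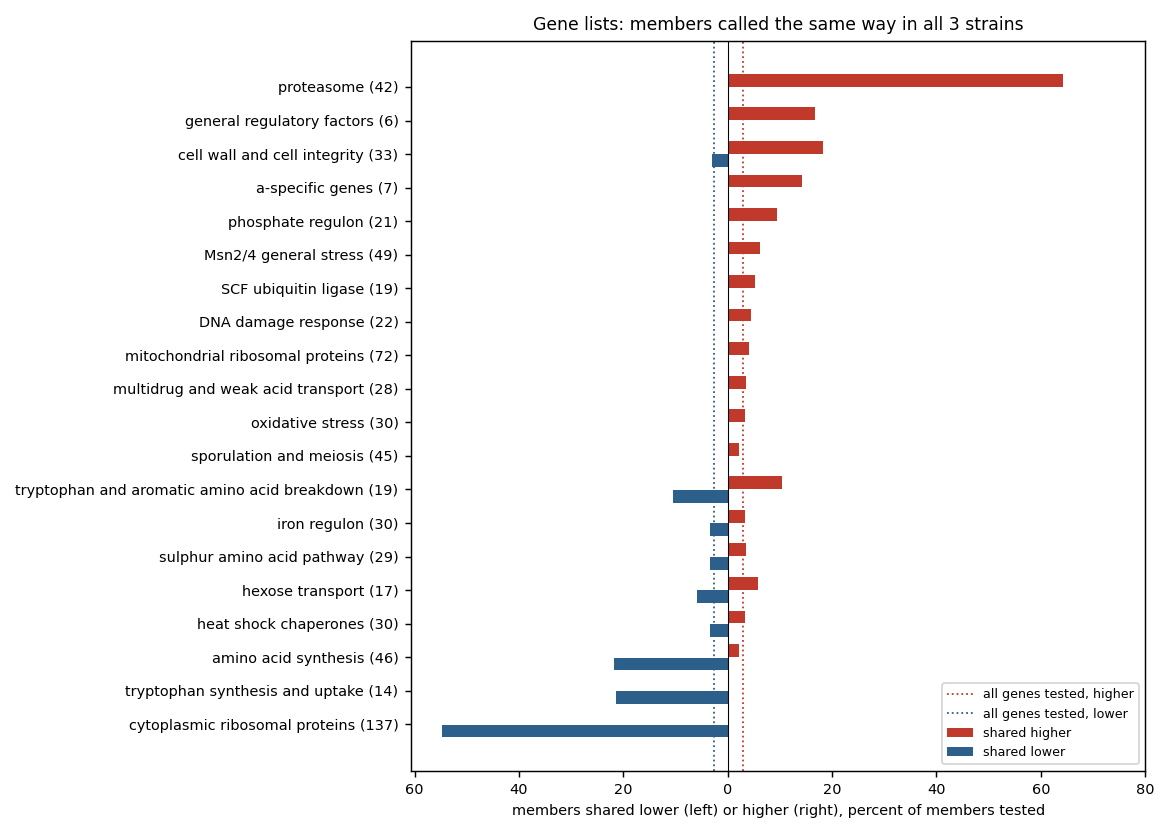
Share of each gene list called the same way in all 3 strains (TMM scaling), higher to the right in red and lower to the left in blue, with the number of genes tested in brackets and the shares over all genes (2.86% and 2.64%) as dotted lines. Proteasome genes (64.3% higher) and cytoplasmic ribosomal protein genes (54.7% lower) stand out, and on the S. pombe scale 0 proteasome genes are shared. Lists with no shared member are not drawn.

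Lists with no shared member were the 112 genes of ribosome biogenesis, 17 of adhesion and filamentation, 20 of cyclins and their regulators, 11 of histones, 7 AVT vacuolar amino acid transporters and 4 alpha-specific genes. Of 30 heat shock chaperone genes 1 was shared higher (HSP26) and 1 lower (HCH1), and 1 of 45 sporulation genes (SGA1) and 2 of 21 phosphate genes (PHM8 and PHO3) were shared higher. The sulphur list of 29 genes had SUL2 higher and MMP1 lower, the hexose transport list of 17 genes had HXT5 higher and RGT2 lower, the iron list of 30 genes had FET3 higher and COT1 lower, and 3 of 72 mitochondrial ribosomal protein genes and 1 of 7 a-specific genes (AGA2) were shared higher. None of the shared genes started or ended within 15000 bases of a chromosome end, where 2.5% of all genes tested lie. The Rsc3 element CGCGNG was in 12.8% of the windows of genes shared higher and 13.3% of those shared lower, against 9.53% of all.

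The size of the shared changes differed between strains. Among genes shared higher the medians were 0.94, 0.42 and 0.83 in STH1-AID, RAP1-AID and dual-degron cells, and the smallest change was in RAP1-AID cells for 124 of 179. Among genes shared lower the medians were −0.47, −0.89 and −0.89, and the smallest change was in STH1-AID cells for 89 of 165. The test of the interaction called the strain effects different for 143 of the 179 and 148 of the 165, against 74.9% of all genes. In each strain all IAA libraries lay above all DMSO libraries for 167 of the 179, against 8.38% of all genes, and below them for 158 of the 165, against 8.95%, which follows largely from how the genes were chosen. Over 2-fold in each strain were 19 genes higher and 3 lower (RPL8A, YOR338W and RPL7B).

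A single IAA coefficient over the 18 libraries, with strain as a block, gave a different set. It called 5.63% of genes over 2-fold higher (352) and 4.4% over 2-fold lower (275). Of those, 57 and 66 were shared by the rule above, and for 267 of the 352 and 271 of the 275 the strain effects differed. The sign was the same in all 3 strains for 267 of the 352 genes called higher and 184 of the 275 called lower.

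Members chosen in a pair of strains were also read in the strain left out, whose libraries had no part in the choice, an analysis added after the data were seen. The strain left out was fitted alone, with its own spread per gene. Its shares of all genes therefore differ from those given above, for example 22.7% instead of 5.71% higher in RAP1-AID cells. Dual-degron cells carry both tagged alleles, so each choosing pair shared a degron with the strain left out. Agreement there cannot tell a response common to all strains from an effect of the shared degron. Of 199 genes higher in RAP1-AID and dual-degron cells, 83.9% were called higher in STH1-AID cells, against 40.9% of all genes. Of 269 genes lower in RAP1-AID and dual-degron cells, 46.1% were called lower in STH1-AID cells, against 42.3% of all genes, 65 were called higher, and their median was −0.11. Of genes higher in STH1-AID and dual-degron cells, 32.9% were called higher in RAP1-AID cells, against 22.7% of all genes. For genes lower in those strains the share in RAP1-AID cells was 22.7% against 23.2% of all, so a fall in both strains that lost Sth1 went with no more falls in RAP1-AID cells than the background. Genes chosen in the 2 strains with 1 degron were called the same way in dual-degron cells for 70.3% of those higher and 77.1% of those lower, against 26.3% and 33% of all.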

How the data were processed

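Raw fragment counts per gene were deposited by the authors for 21 libraries. Per the methods and processing notes, the authors trimmed reads with cutadapt 1.9.1, aligned them unspliced with BWA 0.5.9-r16 to the S. cerevisiae (R64) and S. pombe (ASM294v2) genomes separately, kept uniquely mapped proper pairs, and counted by strand with featureCounts of Subread 1.5.1, so that fragments over a splice junction were lost and a fragment over several genes counted for each. Deposited S. pombe counts served only as an alternative scaling, and WT libraries only as levels.

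The 18 libraries of the degron strains were fitted together in R 4.3.3 with edgeR 4.0.16 (low counts filtered, TMM, quasi-likelihood test, Benjamini-Hochberg adjustment at 0.05 over 6256 genes). One fit had an IAA coefficient for each strain, which gave the shared genes and the test between strains, and another had strain as a block and 1 IAA coefficient, called at a log2 change of 1. Named genes were the 12 in each direction with the largest smallest change over the strains and a mean count of at least 50, up to 4 shared members of each list, STH1, RAP1 and the marker genes; any other gene named with values was chosen after its values were seen. The scripts were tested on simulated data. The members and gene lists were chosen with earlier results of these data known. Alternatives were S. pombe, RLE and total scaling, no filter, DESeq2 1.42.0, a replicate block, other sets of libraries and leaving out each library. The p-values of the strain effects rest on 1 spread per gene, estimated over the labelled biological replicates of all degron strains together. Each genotype was 1 strain. Promoter windows were the 300 bases before the annotated start, cut from the RefSeq genome of build R64, and all 344 shared genes had one. Totals of the 18 libraries were 20901972 to 29090954 counts. One gene that the naming rule selects is not reported here.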

Additional observations from a re-analysis of the deposited data

Results flagged for a closer look

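For the genes below the effect of IAA differed between the 3 strains by edgeR's test of the interaction, and the adjusted p is given in brackets. Since 74.9% of all genes differed by this test, a difference was the usual case.

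Among genes that were higher in every strain but by unequal amounts were YLR184W (0.00718), YOR161C-C (0.0182), ARO9 (0.0386), STF1 (0.000241), TDH1 (0.00539), ECM8 (9.93e-06), SGA1 (1.73e-05), PHM8 (0.0098), HXT5 (0.000163) and PHO3 (9.09e-07). Genes of stress, wall and transport were GPH1 (6.46e-05), YGP1 (1.97e-08), HSP26 (7.75e-05), CWP1 (1.08e-05), SED1 (8.01e-06), PRM5 (0.00108), YAP1 (1.14e-05), FET3 (0.0048), SUL2 (0.0308) and AGA2 (9e-06).

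In the proteasome and ubiquitin group these were UFD1 (7.86e-07), PUP2 (0.00358), PUP1 (2.46e-06), PRE8 (1.99e-07) and UBA1 (5.1e-05), each with the smallest change in RAP1-AID cells. Other genes higher in all strains were LYS20 (6.63e-07), IMG2 (0.0193), RSM7 (1.35e-06) and RSM18 (0.00347).

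Among genes lower in every strain were RPL8A (0.00213), RPL7B (3.45e-05), RPL9B (1.93e-05) and RPS24B (2.65e-10) of the ribosome, ARO4 (1.17e-09), ARO2 (0.000981), TRP5 (2.69e-06), HOM2 (7.92e-09), HOM3 (1.48e-08) and HIS7 (2.02e-05) of amino acid synthesis, and PFK1 (0.00444), LCB3 (1.18e-07), YPL199C (0.00174), SSL1 (5.77e-06), ALD5 (2.64e-08) and HCH1 (0.00104). On the log2 scale RPS24B fell by 0.57, 2.05 and 1.63 in STH1-AID, RAP1-AID and dual-degron cells.

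Of the genes not shared, STH1 (5.1e-08), MET17 (1.21e-05) and HIS3 (0.00216) differed as well. HIS3 met the rule under a replicate block and with each strain fitted alone, and its IAA libraries were below its DMSO libraries in every strain. It carries a partial deletion (his3D1) by the labels, and its mRNA had log2 fold changes of −0.46, −0.27 and −0.93 in STH1-AID, RAP1-AID and dual-degron cells.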

How the results depend on the processing

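Scaling by the S. pombe counts turned the pooled log2 fold changes of PUP2 to −0.05, SUL2 to −0.28, RAP1 to −0.24, IMG2 to −0.2, RSM18 to −0.25 and STH1 to −0.07, and it raised the median SE of a strain effect from 0.09 to between 0.31 and 0.32. It left 7 genes shared higher, with 6 over 2-fold higher and 86 over 2-fold lower, and 0 of the proteasome, 124 of the ribosomal protein, 1 of the amino acid and 0 of the cell wall genes shared. Pooled calls were then 160 higher and 1591 lower, with 381 genes higher in STH1-AID, 25 higher and 275 lower in RAP1-AID and 263 higher in dual-degron cells, 2090 genes differing between strains, and libraries without overlap for 35 genes higher and 1532 lower. RLE scaling gave 109 genes shared lower, and plain library totals gave no overlap for 865 genes higher and 196 lower. Without a filter 625 genes were higher in RAP1-AID cells, 277 were shared higher and 87 lower, and the ribosomal protein and amino acid lists had 41 and 6 members lower. A fit of all 21 libraries gave 630 higher in RAP1-AID cells, 270 shared higher, 91 shared lower, and 48 and 4 members of those lists. The cause of these differences was not tested.

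Fitting each strain alone gave 1377 genes higher and 1410 lower in RAP1-AID cells, 465 shared higher, 432 shared lower and 12 cell wall genes, and kept 155 of the 179 and 152 of the 165. Of the named genes RAP1, ARO2, SUL2, RGT2 and YLR184W were not shared in these fits, and RGT2 was not shared with DESeq2. A replicate block gave 938 higher and 1054 lower in RAP1-AID cells, 450 shared higher with 30 over 2-fold, 383 shared lower and 10 cell wall genes, and kept all 179 and 165. HIS3 became shared lower under the replicate block and with each strain alone. The labels give the IAA and DMSO libraries the same numbers but do not call them pairs, and the main fit did not pair them. The correlation of same-numbered deviations was 0.09 to 0.22 in the single degron strains and 0.51 to 0.7 in dual-degron cells. Every IAA library correlated best with the DMSO library of its own number, a hint of pairing from the data and not from the design. The pooled effect had 218 higher and 164 lower genes without STH1-AID cells, and 630 and 720 without RAP1-AID cells. DESeq2 kept 178 of the 179 and 124 of the 165.

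Leaving out 1 library gave 174 to 364 genes for the pooled effect lower, 212 to 846 higher and 344 to 594 lower in RAP1-AID cells, 118 to 373 shared higher, 72 to 203 shared lower and 1 to 3 over 2-fold lower. The ribosomal protein list then had 27 to 88 and the amino acid list 4 to 11 members lower, and no overlap was found for 529 to 897 genes higher and 276 to 622 lower. Depth limits the reading of genes under 50 counts, 3 of which were shared higher. Intervals cover counting error only.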
